A study of Homo sapiens with 36 samples.

Results

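The BCL2 family genes described here were 10 genes: the pro-survival members BCL2, BCL2L1 and MCL1, the effectors BAX and BAK1, and the BH3-only members BBC3, PMAIP1, BID, BIK and BCL2L11. They were chosen by gene symbol, matched to the Ensembl identifier in the count table of each library, and all 10 were found among 60648 identifiers and passed the filter on low counts that left 15415 protein-coding genes for testing. RNA-seq of poly-A RNA was available for 36 libraries of HCT116, a human colorectal cancer line, in 12 groups of line and day with 3 libraries each. The lines were UHRF1-AID, DNMT1-AID, UHRF1-AID/DNMT1-AID and WT, and the days were 2, 6 and 8. All lines, WT included, expressed OsTIR1, an E3 ligase from plants, from a promoter switched on by doxycycline, and all received 2 µg/mL doxycycline with 20 µM of the TIR1 inhibitor auxinole for 1 day and then 2 µg/mL doxycycline with 500 µM auxin. In the 3 degron lines a mini-AID tag on UHRF1, on DNMT1 or on both lets auxin direct the tagged protein to degradation; UHRF1 guides the maintenance methyltransferase DNMT1 to newly replicated DNA. The labels name no clone or batch, so p-values measure the spread between these libraries.

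Proteins of this family decide at the outer mitochondrial membrane whether a cell starts the intrinsic apoptosis pathway. BAX and BAK1 form the pores that release cytochrome c, pro-survival members hold BAX and BAK1 in check, and BH3-only proteins either neutralise the pro-survival members or activate BAX and BAK1 directly. Transcript levels are only one layer of this control, since MCL1 is a short-lived protein, BID is activated by cleavage, and BAX and BCL2L11 are regulated after translation. Senescent cells are widely described as leaning on pro-survival members, which is why inhibitors of BCL2 and BCL-XL are used against them.

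Because UHRF1 and DNMT1 maintain methylation of CpG sites, promoters from RefSeq (GRCh38.p14, 250 bases before to 50 after the start) are shown for a contrast of CpG-rich and CpG-poor starts among the members whose transcripts moved. In the lines below, read 5′ to 3′, capitals mark each CpG.
BCL2: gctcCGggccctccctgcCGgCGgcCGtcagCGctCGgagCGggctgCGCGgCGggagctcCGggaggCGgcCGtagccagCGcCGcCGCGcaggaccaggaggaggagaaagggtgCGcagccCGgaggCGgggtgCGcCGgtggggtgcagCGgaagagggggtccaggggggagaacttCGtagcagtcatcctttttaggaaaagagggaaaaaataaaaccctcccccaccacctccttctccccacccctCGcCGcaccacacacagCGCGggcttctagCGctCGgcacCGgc
BCL2L11: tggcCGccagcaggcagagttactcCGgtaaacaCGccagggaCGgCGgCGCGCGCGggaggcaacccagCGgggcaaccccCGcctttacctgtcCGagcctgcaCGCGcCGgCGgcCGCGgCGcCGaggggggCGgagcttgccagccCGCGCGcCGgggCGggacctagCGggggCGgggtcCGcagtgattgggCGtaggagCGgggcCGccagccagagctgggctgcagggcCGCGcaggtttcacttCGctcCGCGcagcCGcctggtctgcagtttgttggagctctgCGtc
BBC3: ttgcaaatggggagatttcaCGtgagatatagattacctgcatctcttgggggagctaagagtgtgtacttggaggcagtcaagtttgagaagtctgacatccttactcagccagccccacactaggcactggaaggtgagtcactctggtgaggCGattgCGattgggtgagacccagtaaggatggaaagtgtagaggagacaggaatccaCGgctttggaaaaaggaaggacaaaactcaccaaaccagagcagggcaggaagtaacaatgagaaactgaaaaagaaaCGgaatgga
BAK1: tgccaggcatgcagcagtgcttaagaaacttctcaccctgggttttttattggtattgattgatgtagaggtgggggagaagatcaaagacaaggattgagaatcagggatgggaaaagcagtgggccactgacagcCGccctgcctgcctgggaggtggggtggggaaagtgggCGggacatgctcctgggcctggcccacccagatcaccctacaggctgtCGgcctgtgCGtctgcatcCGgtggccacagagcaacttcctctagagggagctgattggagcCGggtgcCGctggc
BCL2 (chr18:63319720-63320019, minus strand) held 31 CpG and BCL2L11 (chr2:111120664-111120963, plus strand) held 39. BBC3 (chr19:47232618-47232917, minus strand) held 5 CpG and BAK1 (chr6:33580227-33580526, minus strand) held 7, below the median of 14 over 35116 promoters of the same length. For 8 of the 10 members an entry was matched, with 13 starts between them, and 4 of the 6 members with a single start lay above that median. The other 2 members with a single start were BBC3 and BAK1. The printed promoters are a selection. BCL2L1, called higher in some comparisons below, held 20 and 16 CpG at its starts. BID, also called higher, held 37, 29, 6, 33 and 31. PMAIP1 held 42 and BAX held 38. A link between CpG count and direction was not tested. The GC box GGGCGG, searched on both strands and itself containing a CpG, was present at 9 of the 13 starts and in 45% of all promoters. A p53 half-site, searched likewise, was found at 1 start, that of BAK1, and in 6.6% of all promoters. Methylation was not measured in these libraries.

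Libraries held 21074536 to 37175136 counts (median 25031562.5), of which 90.22 to 92.83% fell on protein-coding genes and 1.36 to 10.8% on mitochondrial transcripts. The mean mitochondrial share on day 8 was 9.6% in UHRF1-AID/DNMT1-AID, 5.99% in DNMT1-AID and 5.71% in UHRF1-AID, against 3.39% in WT. Levels are given as CPM (counts scaled to a common library size by edgeR's trimmed mean of M-values, TMM) and, where genes are compared, as TPM (also divided by exon length). DNMT1 mRNA, the transcript of a targeted gene, averaged 16.0 CPM in DNMT1-AID on day 2 and 14.2 CPM in UHRF1-AID/DNMT1-AID, against 52.1 CPM in WT, although the degron acts on protein. UHRF1 mRNA averaged 47.4 CPM in UHRF1-AID on day 2 and 49.6 CPM in UHRF1-AID/DNMT1-AID, against 52.0 CPM in WT. On day 8 both targeted transcripts were lower in UHRF1-AID/DNMT1-AID than in WT. UHRF1 mRNA then averaged 60.7 CPM against 149 CPM, and DNMT1 mRNA 44.1 CPM against 199 CPM. The 7 epithelial markers summed to 3664 to 11310 CPM in degron libraries and 4675 to 6674 CPM in WT. The 5 leukocyte markers summed to 9.50 to 37.4 CPM in degron libraries and 26.2 to 37.6 CPM in WT, the 5 fibroblast markers to 2.95 to 84.5 and 6.27 to 39.7 CPM, and the 3 endothelial markers to 0.23 to 3.78 and 0.27 to 1.12 CPM. None of these marker genes was at 0 in all libraries, and the part of these differences in the results was not tested. In bulk RNA, fewer cells of a kind and less RNA per cell cannot be told apart.

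Per transcript length, BCL2L1, which encodes BCL-XL, and MCL1 were the most abundant pro-survival messages in this line and BCL2 was the rarest of all 10. In WT on day 2 the TPM levels ran from BCL2L1 at 99.7 ± 9.66 and MCL1 at 88.2 ± 3.89 to BCL2 at 0.425 ± 0.0719 (SD, n = 3). Of the pro-death members, PMAIP1 was highest at 75.6 ± 3.92 TPM, followed by BAK1 at 47.5 ± 2.95, BIK at 43.3 ± 2.81 and BAX at 39.3 ± 3.88 TPM. BID at 28.5 ± 1.29, BBC3 at 19.6 ± 1.72 and BCL2L11 at 9.94 ± 0.359 TPM were lower. Within 1 SD of their means, BCL2L1 overlapped with MCL1, BAK1 with BIK, and BIK with BAX. BCL2 rested on 6 to 104 reads per library, whereas every other member had at least 211 reads in each library.

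**Figure D1:**
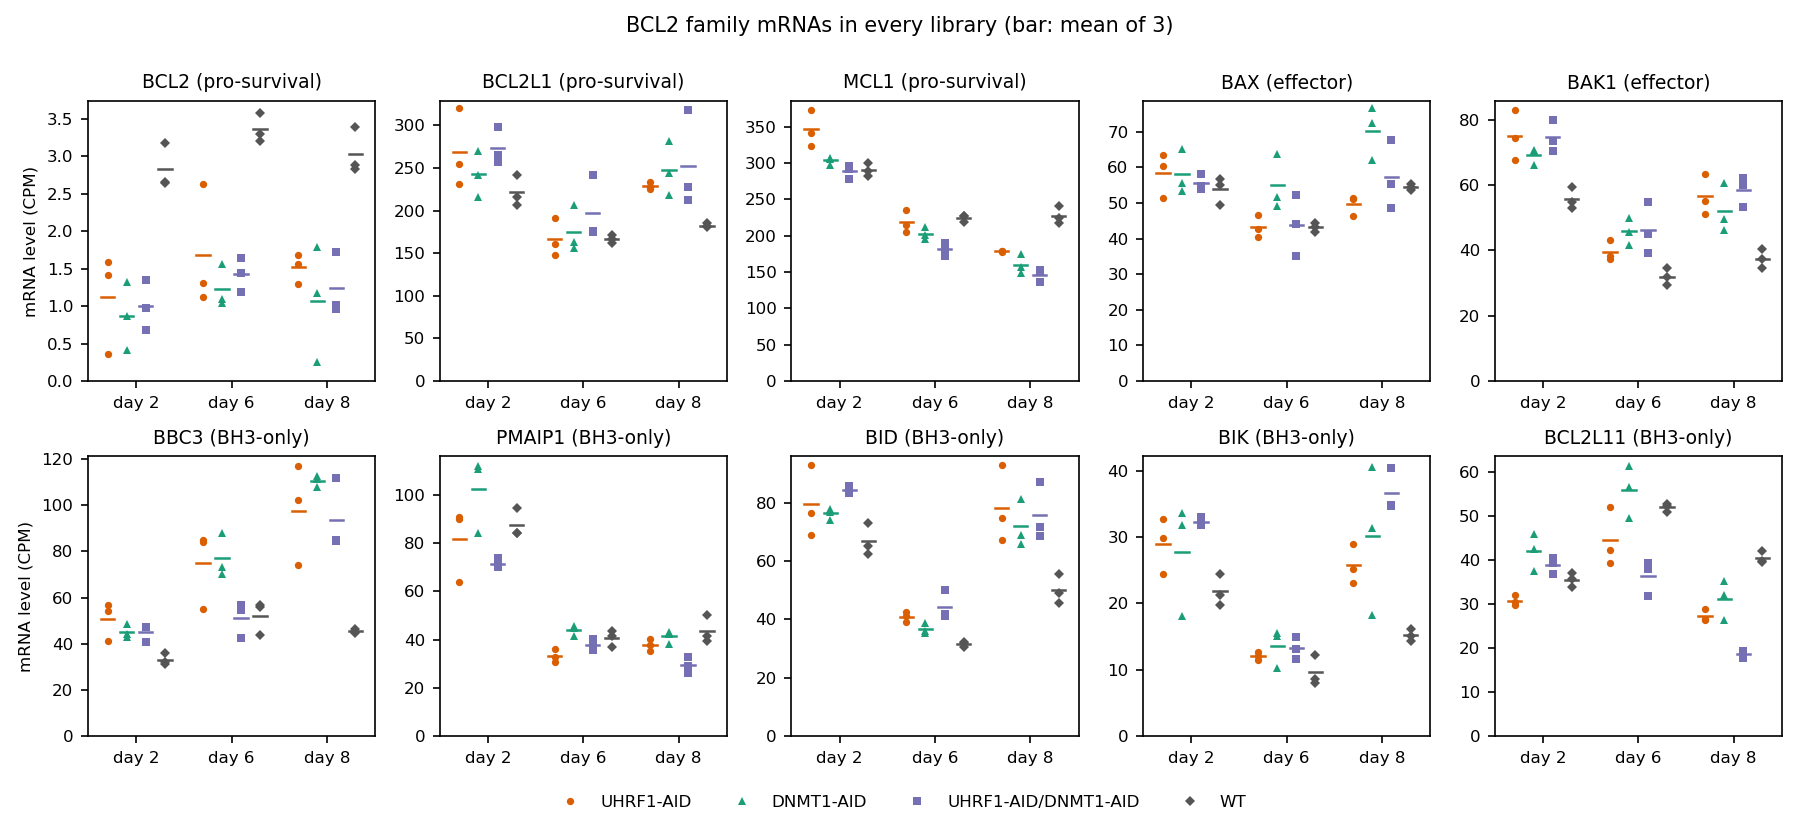
Level of each of the 10 BCL2 family genes in CPM on axes from 0, with one point per library and a bar for the mean of 3, by line within day. WT points for BCL2 lie above all degron points on each day, and BBC3 on day 8 lies between 74.0 and 117 CPM in degron libraries and between 44.6 and 46.4 CPM in WT.

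The first comparison set each degron line against WT of the same day, which asks how the treated lines differed. Rose and fell here mean higher and lower than in WT. No library from before auxin was analysed, so earlier differences between the lines cannot be told apart from those that followed depletion. Differences are log2 fold changes with their standard error from edgeR's quasi-likelihood test fitted on all 36 libraries, with p-values adjusted by Benjamini-Hochberg over the 15415 genes, and a member was called at an adjusted p under 0.05. Over 9 comparisons the members were called higher 30 times and lower 18 times in 90 tests, beside 17.6% of all gene tests called higher and 15.5% lower. BAK1 was called higher in 8 of 9 comparisons, BBC3 in 7, BID in 6 and BIK in 4. Under the GC and length correction described below, all 8 BAK1 calls were lost, and several of BBC3 and BIK. The direction of BAK1 in DNMT1-AID and UHRF1-AID/DNMT1-AID on day 8 turned there. BCL2 was called lower in 8 of 9, MCL1 and BCL2L11 in 4 each and PMAIP1 in 2.

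Members were called most often on day 8, and so were all genes. In UHRF1-AID/DNMT1-AID, 5 of 10 rose (BCL2L1, BAK1, BBC3, BID and BIK) and 4 fell (BCL2, MCL1, PMAIP1 and BCL2L11), where 35.7% of all genes rose and 32.8% fell. In DNMT1-AID, 6 rose and 3 fell (background 25.1% and 22.4%). In UHRF1-AID, 4 rose and 3 fell (background 24.2% and 21.0%). The median log2 fold change of the members on day 8 was 0.27 in UHRF1-AID/DNMT1-AID, 0.40 in DNMT1-AID and 0.10 in UHRF1-AID, against 0.03, 0.02 and 0.03 over all genes.

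On day 6, 2 of 10 rose and 3 fell in UHRF1-AID/DNMT1-AID (background 19.0% and 21.9%), 3 rose and 1 fell in DNMT1-AID (background 8.84% and 4.35%), and 3 rose and 0 fell in UHRF1-AID (background 14.3% and 10.5%). On day 2, 4 rose and 2 fell in UHRF1-AID/DNMT1-AID (background 16.3% and 11.5%), 3 rose and 1 fell in UHRF1-AID (background 12.1% and 14.4%), and only BCL2, which fell, was called in DNMT1-AID (background 2.67% higher and 0.714% lower). On day 6 pro-survival members were called only lower. The effectors were not called lower in any of the 9 comparisons, although BAX was once GC content and length were corrected for.

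**Figure D2:**
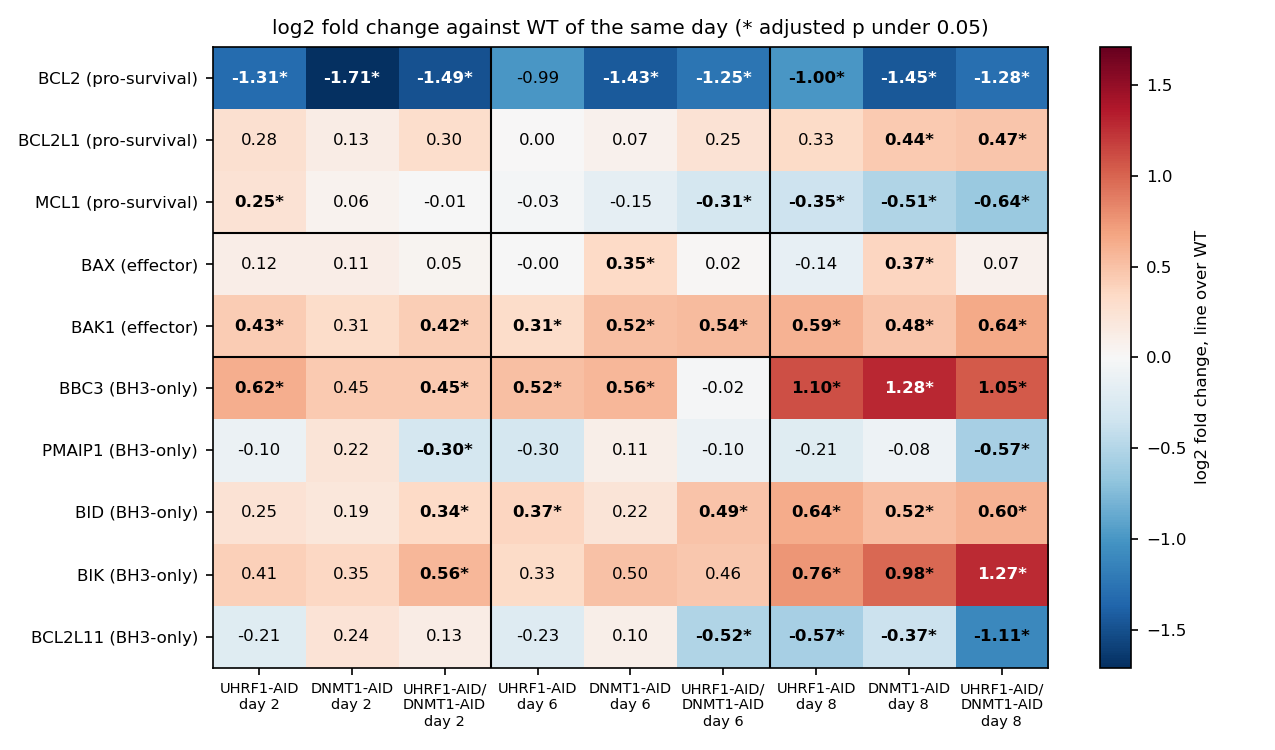
Colour map of the log2 fold change of each member (vertical axis, by role) against WT of the same day for the 3 degron lines on days 2, 6 and 8 (horizontal axis), each value printed in its cell and a star marking an adjusted p under 0.05. BCL2 is below 0 in all 9 comparisons, and on day 8 BBC3 lies between 1.05 and 1.28 while BCL2L11 lies between −1.11 and −0.37.

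Many of the rises were smaller once each library was corrected for the GC content and exon length of its genes, by a smooth fit over all genes tested. Over all genes on day 8, the third with the highest GC content had a median log2 fold change of 0.435 in UHRF1-AID/DNMT1-AID, 0.25 in DNMT1-AID and 0.20 in UHRF1-AID, and the third with the lowest had −0.30, −0.16 and −0.10. The third with the shortest exons stood at 0.36, 0.26 and 0.16 and the third with the longest at −0.19, −0.16 and −0.08. BCL2L1, BAX, BAK1, BBC3 and BIK belong to the GC-rich genes so defined, and BAX, BAK1, BBC3, PMAIP1 and BIK to the short ones. BCL2 and BCL2L11 are among the long genes and PMAIP1 alone is among the GC-poor ones. With the correction, members were called above WT 13 times in place of 30, and below WT 18 times in both cases. The calls below WT were not the same ones. Some of BCL2, MCL1 and BCL2L11 were lost, and calls of BAX and PMAIP1 were gained. The share of all genes called with the correction is not given beside these counts. The drop from 30 to 13 can therefore not be read as particular to the members. Whether these shifts arose in the RNA or in library preparation was not tested.

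**Figure D3:**
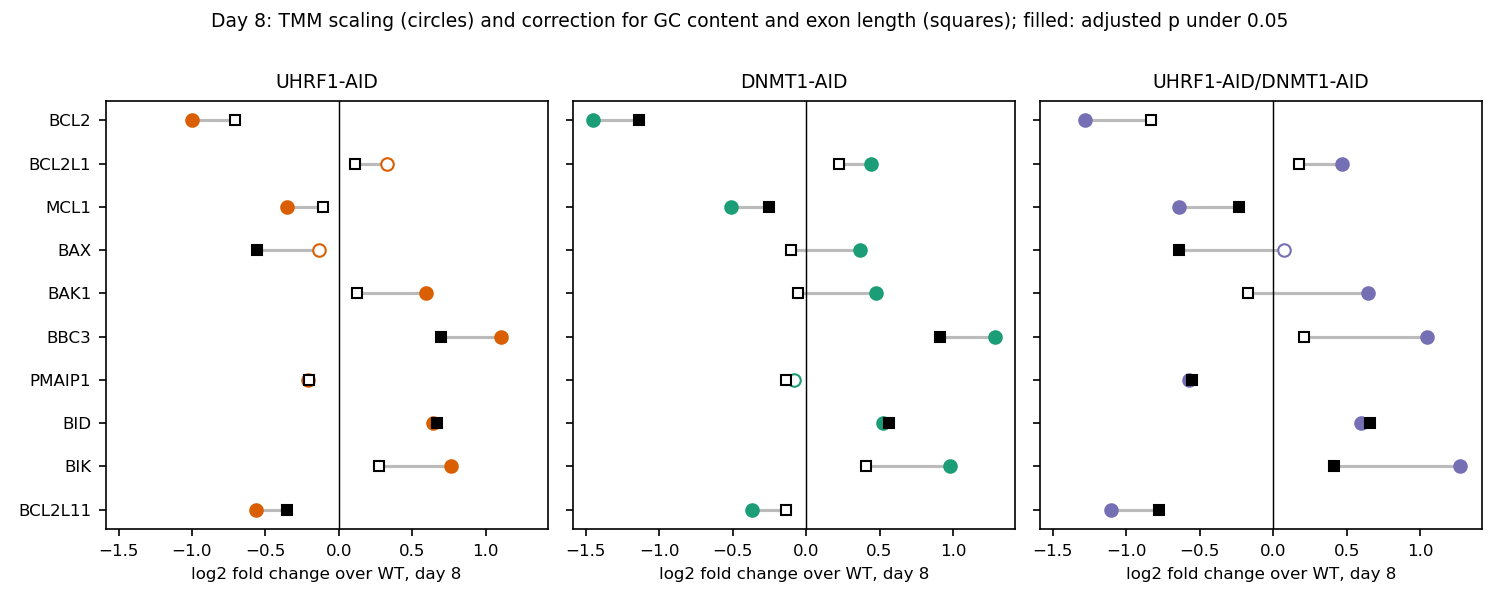
Log2 fold change of each member on day 8 against WT for the 3 degron lines, with TMM scaling (circles) and corrected for GC content and exon length (squares), filled where the adjusted p was under 0.05. BAK1 in UHRF1-AID/DNMT1-AID stands at 0.64 with TMM scaling and −0.17 corrected, while BID stands at 0.60 and 0.66.

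BCL2, the founding pro-survival member and a weakly read gene here, was lower in every degron library than in every WT library of the same day. On day 2 it was read at 0.364, 1.42 and 1.59 CPM in UHRF1-AID, 0.862, 0.410 and 1.32 CPM in DNMT1-AID and 0.975, 1.35 and 0.682 CPM in UHRF1-AID/DNMT1-AID, against 3.17, 2.66 and 2.65 CPM in WT. On day 6 the values were 1.12, 2.63 and 1.30 CPM in UHRF1-AID, 1.56, 1.09 and 1.04 CPM in DNMT1-AID and 1.44, 1.19 and 1.64 CPM in UHRF1-AID/DNMT1-AID, against 3.30, 3.20 and 3.57 CPM in WT. On day 8 they were 1.56, 1.69 and 1.30 CPM in UHRF1-AID, 1.79, 0.257 and 1.17 CPM in DNMT1-AID and 1.02, 1.72 and 0.966 CPM in UHRF1-AID/DNMT1-AID, against 3.39, 2.88 and 2.83 CPM in WT. The lowest value, in DNMT1-AID replicate 2 on day 8, came from 6 reads. In DNMT1-AID the log2 fold change was −1.71 ± 0.45 (adjusted p = 0.0284) on day 2, −1.43 ± 0.40 (adjusted p = 0.0146) on day 6 and −1.45 ± 0.41 (adjusted p = 0.00389) on day 8. In UHRF1-AID/DNMT1-AID it was −1.49 ± 0.44 (adjusted p = 0.0112), −1.25 ± 0.39 (adjusted p = 0.0107) and −1.28 ± 0.41 (adjusted p = 0.00618) on days 2, 6 and 8. In UHRF1-AID it was −1.31 ± 0.42 (adjusted p = 0.0177) on day 2 and −1.0 ± 0.39 (adjusted p = 0.037) on day 8, and −0.99 ± 0.38 (adjusted p = 0.0557) on day 6, which missed the threshold and was called by DESeq2 (adjusted p = 0.0495).

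With so few reads several BCL2 calls turned on single libraries. On day 2 the call in DNMT1-AID was lost without WT replicate 1 (adjusted p = 0.132), WT replicate 3 (adjusted p = 0.0649), DNMT1-AID replicate 1 (adjusted p = 0.0694) or DNMT1-AID replicate 2 (adjusted p = 0.122), that in UHRF1-AID without WT replicate 1 (adjusted p = 0.0626) or UHRF1-AID replicate 1 (adjusted p = 0.123) and that in UHRF1-AID/DNMT1-AID without UHRF1-AID/DNMT1-AID replicate 3 (adjusted p = 0.0655). On day 6 the call in DNMT1-AID was lost without WT replicate 3 (adjusted p = 0.0513), DNMT1-AID replicate 2 (adjusted p = 0.0622) or DNMT1-AID replicate 3 (adjusted p = 0.0702) and that in UHRF1-AID/DNMT1-AID without UHRF1-AID/DNMT1-AID replicate 2 (adjusted p = 0.051). The day 8 call in UHRF1-AID was lost on leaving out any of its 6 libraries in turn (adjusted p 0.0548 to 0.112), while that in DNMT1-AID was kept each time. Corrected for GC content and length, BCL2 was below WT in all 9 comparisons and called in 6, its day 8 values being −0.83, −1.14 and −0.71 in UHRF1-AID/DNMT1-AID, DNMT1-AID and UHRF1-AID with a call in DNMT1-AID. The BCL2 promoter shown above is among the CpG-rich ones, at 31 CpG.

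MCL1, a pro-survival member whose protein turns over quickly, was lower in all 3 degron lines on day 8. It was read at 179, 178 and 179 CPM in UHRF1-AID, 175, 148 and 157 CPM in DNMT1-AID and 136, 149.5 and 152 CPM in UHRF1-AID/DNMT1-AID, against 240.2, 225 and 218 CPM in WT. Every degron library lay below every WT library. MCL1 fell, with log2 fold changes of −0.64 ± 0.07 (adjusted p = 7.51e-10) in UHRF1-AID/DNMT1-AID, −0.51 ± 0.07 (adjusted p = 3.51e-07) in DNMT1-AID and −0.35 ± 0.07 (adjusted p = 9.9e-05) in UHRF1-AID. The GC and length correction left −0.24, −0.25 and −0.11 in the same order of lines, the last without a call. On day 6 the values were 215, 236 and 206 CPM in UHRF1-AID, 201, 195 and 211 CPM in DNMT1-AID and 172, 182 and 189.6 CPM in UHRF1-AID/DNMT1-AID, against 227, 219 and 226 CPM in WT, and the fall was called in UHRF1-AID/DNMT1-AID at −0.31 ± 0.07 (adjusted p = 0.000574), or −0.13 without a call after correction. On day 2 MCL1 had instead been read at 373, 341 and 324 CPM in UHRF1-AID, 307, 306 and 298 CPM in DNMT1-AID and 292, 277 and 296 CPM in UHRF1-AID/DNMT1-AID, against 282, 289.6 and 299.8 CPM in WT, and it rose in UHRF1-AID by 0.25 ± 0.07 (adjusted p = 0.00591). That early rise was lost without UHRF1-AID replicate 1 (adjusted p = 0.0643). ADAMTSL4, on the other strand over MCL1, was read at 0.666 to 7.89 CPM.

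BCL2L1, whose main product BCL-XL is the pro-survival member most read per length here, was called higher on day 8 in DNMT1-AID and UHRF1-AID/DNMT1-AID. On that day it was read at 228, 225 and 234 CPM in UHRF1-AID, 244, 218 and 282 CPM in DNMT1-AID and 212, 227 and 318 CPM in UHRF1-AID/DNMT1-AID, against 181, 182 and 185 CPM in WT. BCL2L1 rose, with log2 fold changes of 0.47 ± 0.14 (adjusted p = 0.0039) in UHRF1-AID/DNMT1-AID and 0.44 ± 0.14 (adjusted p = 0.00999) in DNMT1-AID. In UHRF1-AID it stood at 0.33 ± 0.14 (adjusted p = 0.0565) and was not called, but DESeq2 called it there at 0.34 (adjusted p = 0.0367), as did its size factors in edgeR (adjusted p = 0.0485), a replicate block and a fit on the 6 libraries alone. Both calls rested on the highest library of the group, since the first was lost without UHRF1-AID/DNMT1-AID replicate 3 (adjusted p = 0.0844) and the second without DNMT1-AID replicate 3 (adjusted p = 0.0672). With library size alone as the scaling both calls were lost, at 0.28 and 0.26, and with the GC and length correction at 0.17 and 0.23. On day 2 and day 6 BCL2L1 was called in none of the 3 lines. Counting was without strand as far as the files show, because MIR3190 and MIR3191, on opposite strands within BBC3, had equal counts in 36 of 36 libraries. ABALON, an antisense RNA over the start of BCL2L1 with 91.2% of its exonic bases in BCL2L1 exons, had counts equal to 17.2 to 52.3% of those of BCL2L1, and reads of the 2 genes cannot be told apart. On day 8 that share averaged 18.9% in UHRF1-AID/DNMT1-AID, 30.6% in DNMT1-AID and 34.9% in UHRF1-AID, against 42.5% in WT.

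Of the effectors, BAK1 was raised in nearly every comparison and BAX in few. On day 8 BAK1 was read at 51.2, 63.4 and 55.1 CPM in UHRF1-AID, 49.6, 60.6 and 46.2 CPM in DNMT1-AID and 53.3, 62.0 and 60.1 CPM in UHRF1-AID/DNMT1-AID, against 34.6, 40.5 and 37.4 CPM in WT. Every degron library lay above every WT library. BAK1 rose, with log2 fold changes of 0.64 ± 0.11 (adjusted p = 3.83e-06) in UHRF1-AID/DNMT1-AID, 0.48 ± 0.11 (adjusted p = 0.000523) in DNMT1-AID and 0.59 ± 0.11 (adjusted p = 3.37e-05) in UHRF1-AID, values that stood at −0.17, −0.05 and 0.12 without a call once GC content and length were corrected for. On day 6 it was 0.54 ± 0.11 (adjusted p = 0.00017), 0.52 ± 0.11 (adjusted p = 0.0011) and 0.31 ± 0.11 (adjusted p = 0.0328) in the same order of lines, and on day 2 0.42 ± 0.11 (adjusted p = 0.00356) in UHRF1-AID/DNMT1-AID and 0.43 ± 0.11 (adjusted p = 0.00262) in UHRF1-AID, calls that the correction also lost. The day 6 call in UHRF1-AID was lost without WT replicate 1 (adjusted p = 0.0828), WT replicate 3 (adjusted p = 0.15) or UHRF1-AID replicate 3 (adjusted p = 0.152). In the RefSeq set, the BAK1 promoter was the only start of a member with a p53 half-site.

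BAX, the effector that moves from the cytosol to mitochondria on activation, was called only in DNMT1-AID. It was read there at 62.0, 76.6 and 72.5 CPM on day 8, against 53.7, 54.4 and 55.5 CPM in WT, a log2 fold change of 0.37 ± 0.12 (adjusted p = 0.01) that turned to −0.10 with the GC and length correction. On day 6 the values were 49.2, 51.7 and 63.9 CPM in DNMT1-AID and 41.9, 44.4 and 43.2 CPM in WT, with 0.35 ± 0.12 (adjusted p = 0.0466), or 0.08 without a call after correction. Both differences were small and tied to single libraries. The day 8 call was lost without DNMT1-AID replicate 2 (adjusted p = 0.0571), and the day 6 call without WT replicate 1 (adjusted p = 0.15), WT replicate 2 (adjusted p = 0.083), WT replicate 3 (adjusted p = 0.114), DNMT1-AID replicate 2 (adjusted p = 0.0595) or DNMT1-AID replicate 3 (adjusted p = 0.318). In UHRF1-AID and UHRF1-AID/DNMT1-AID on day 8 the log2 fold changes were −0.14 ± 0.12 and 0.07 ± 0.12 and were not called, whereas with the correction BAX was called lower there, at −0.56 and −0.64, and on day 6 at −0.28 and −0.37.

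BBC3, the BH3-only protein PUMA and a classic p53 target that binds all pro-survival members, showed the largest rise among the members in DNMT1-AID and in UHRF1-AID on day 8. It was read at 117, 74.0 and 102 CPM in UHRF1-AID, 111, 113 and 108 CPM in DNMT1-AID and 84.5, 112 and 84.9 CPM in UHRF1-AID/DNMT1-AID, against 45.3, 44.6 and 46.4 CPM in WT. The lowest degron library, UHRF1-AID replicate 2, was still above the highest of WT. BBC3 rose, with log2 fold changes of 1.28 ± 0.16 (adjusted p = 1.43e-07) in DNMT1-AID, 1.10 ± 0.16 (adjusted p = 1.46e-06) in UHRF1-AID and 1.05 ± 0.16 (adjusted p = 1.11e-06) in UHRF1-AID/DNMT1-AID. On day 6 the values were 85.0, 55.3 and 84.2 CPM in UHRF1-AID, 73.2, 70.3 and 88.0 CPM in DNMT1-AID and 42.5, 56.9 and 54.7 CPM in UHRF1-AID/DNMT1-AID, against 43.96, 56.8 and 55.9 CPM in WT. The single degron lines were called higher then, at 0.56 ± 0.16 (adjusted p = 0.0152) in DNMT1-AID and 0.52 ± 0.16 (adjusted p = 0.0147) in UHRF1-AID, while UHRF1-AID/DNMT1-AID stood at −0.02 ± 0.16 (adjusted p = 0.92). On day 2 BBC3 was read at 54.4, 41.2 and 56.6 CPM in UHRF1-AID, 43.1, 44.1 and 48.6 CPM in DNMT1-AID and 47.3, 41.0 and 47.3 CPM in UHRF1-AID/DNMT1-AID, against 32.0, 31.2 and 36.02 CPM in WT, with calls of 0.62 ± 0.16 (adjusted p = 0.00474) in UHRF1-AID and 0.45 ± 0.16 (adjusted p = 0.0398) in UHRF1-AID/DNMT1-AID.

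The 3 day 8 calls of BBC3 were kept without any 1 library. The day 6 call in UHRF1-AID was lost without WT replicate 1 (adjusted p = 0.102), UHRF1-AID replicate 1 (adjusted p = 0.0757) or UHRF1-AID replicate 3 (adjusted p = 0.0834), that in DNMT1-AID without WT replicate 1 (adjusted p = 0.114) or DNMT1-AID replicate 3 (adjusted p = 0.0991), and the day 2 call in UHRF1-AID/DNMT1-AID without WT replicate 1 (adjusted p = 0.113), WT replicate 2 (adjusted p = 0.106), UHRF1-AID/DNMT1-AID replicate 1 (adjusted p = 0.102) or UHRF1-AID/DNMT1-AID replicate 3 (adjusted p = 0.111). With the GC and length correction the day 8 calls were kept in DNMT1-AID at 0.91 and in UHRF1-AID at 0.69, and lost in UHRF1-AID/DNMT1-AID at 0.21, as were the day 6 call in UHRF1-AID and the day 2 call in UHRF1-AID/DNMT1-AID. The BBC3 promoter printed above holds 5 CpG and no GC box.

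BID, which is cut by caspase 8 to link death receptors to mitochondria, and BIK, a BH3-only protein of the endoplasmic reticulum, were higher in all 3 degron lines on day 8. BID was read on that day at 67.3, 92.8 and 74.6 CPM in UHRF1-AID, 68.9, 81.2 and 66.0 CPM in DNMT1-AID and 68.5, 71.8 and 87.0 CPM in UHRF1-AID/DNMT1-AID, against 49.2, 45.8 and 55.4 CPM in WT, and the groups did not overlap. Its log2 fold change was 0.60 ± 0.11 (adjusted p = 1.17e-05) in UHRF1-AID/DNMT1-AID, 0.52 ± 0.11 (adjusted p = 0.000174) in DNMT1-AID and 0.64 ± 0.11 (adjusted p = 1.06e-05) in UHRF1-AID, and these calls were kept without any 1 library and with the GC and length correction, at 0.66, 0.56 and 0.67. On earlier days it was called higher in UHRF1-AID/DNMT1-AID on day 6 at 0.49 ± 0.11 (adjusted p = 0.000552) and on day 2 at 0.34 ± 0.11 (adjusted p = 0.0194), and in UHRF1-AID on day 6 at 0.37 ± 0.11 (adjusted p = 0.0116). The day 2 call was lost without WT replicate 1 (adjusted p = 0.102), WT replicate 3 (adjusted p = 0.0653) or UHRF1-AID/DNMT1-AID replicate 3 (adjusted p = 0.0611).

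BIK was read on day 8 at 23.1, 28.9 and 25.2 CPM in UHRF1-AID, 18.3, 40.6 and 31.4 CPM in DNMT1-AID and 40.5, 34.9 and 34.7 CPM in UHRF1-AID/DNMT1-AID, against 15.1, 14.4 and 16.1 CPM in WT. Every degron library was above every WT library, although DNMT1-AID spread widely. BIK rose, with log2 fold changes of 1.27 ± 0.21 (adjusted p = 6.53e-06) in UHRF1-AID/DNMT1-AID, the widest rise of any member in that line, 0.98 ± 0.21 (adjusted p = 0.000423) in DNMT1-AID and 0.76 ± 0.21 (adjusted p = 0.00456) in UHRF1-AID. With the GC and length correction only UHRF1-AID/DNMT1-AID was called, at 0.41, beside 0.41 in DNMT1-AID and 0.27 in UHRF1-AID. On day 6 it was called in none of the lines, although DESeq2 called UHRF1-AID/DNMT1-AID at 0.50 (adjusted p = 0.0425). On day 2 it was called only in UHRF1-AID/DNMT1-AID at 0.56 ± 0.21 (adjusted p = 0.0496), a call lost on leaving out any of 6 libraries in turn (adjusted p 0.0519 to 0.164) and, at 0.10, with the correction.

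PMAIP1 and BCL2L11, both pro-death, ran the other way. PMAIP1, the BH3-only protein NOXA that binds MCL1, was read on day 8 at 35.2, 40.1 and 37.9 CPM in UHRF1-AID, 38.4, 43.2 and 42.5 CPM in DNMT1-AID and 26.1, 29.1 and 32.9 CPM in UHRF1-AID/DNMT1-AID, against 50.3, 39.5 and 41.4 CPM in WT. UHRF1-AID/DNMT1-AID lay below all WT libraries with a log2 fold change of −0.57 ± 0.12 (adjusted p = 5.34e-05), whereas UHRF1-AID at −0.21 ± 0.11 and DNMT1-AID at −0.08 ± 0.11 were not called. The GC and length correction left the double line at −0.55, still called. On day 2 it was called lower in UHRF1-AID/DNMT1-AID at −0.30 ± 0.11 (adjusted p = 0.0475), which was lost on leaving out any of 6 libraries in turn (adjusted p 0.0649 to 0.175) and with DESeq2 (adjusted p = 0.0512). With the GC and length correction it was called lower in UHRF1-AID on day 2 as well, at −0.47 (adjusted p = 5.45e-05) in place of −0.10.

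BCL2L11, the BH3-only protein BIM that binds all pro-survival members, fell below WT in all 3 lines on day 8. It was read at 28.8, 26.5 and 26.5 CPM in UHRF1-AID, 35.2, 31.9 and 26.4 CPM in DNMT1-AID and 19.1, 19.3 and 17.8 CPM in UHRF1-AID/DNMT1-AID, against 39.5, 41.9 and 39.7 CPM in WT, with no overlap. BCL2L11 fell, with log2 fold changes of −1.11 ± 0.10 (adjusted p = 2.65e-11) in UHRF1-AID/DNMT1-AID, −0.57 ± 0.10 (adjusted p = 2.35e-05) in UHRF1-AID and −0.37 ± 0.10 (adjusted p = 0.00299) in DNMT1-AID. On day 6 the values were 52.0, 42.2 and 39.3 CPM in UHRF1-AID, 56.6, 61.4 and 49.5 CPM in DNMT1-AID and 39.2, 37.9 and 31.8 CPM in UHRF1-AID/DNMT1-AID, against 51.0, 52.3 and 52.8 CPM in WT. Only UHRF1-AID/DNMT1-AID was called then, at −0.52 ± 0.10 (adjusted p = 7.93e-05). With the GC and length correction the day 8 calls were kept in UHRF1-AID/DNMT1-AID at −0.78 and UHRF1-AID at −0.35, and lost in DNMT1-AID at −0.14. On day 2 the values were 32.0, 30.5 and 29.9 CPM in UHRF1-AID, 42.4, 45.9 and 37.4 CPM in DNMT1-AID and 40.5, 39.3 and 36.8 CPM in UHRF1-AID/DNMT1-AID, against 33.8, 35.6 and 37.1 CPM in WT, with no call against WT except for UHRF1-AID/DNMT1-AID after the correction, at 0.27 (adjusted p = 0.0247). MIR4435-2HG, annotated antisense to BCL2L11, was read at 12.6 to 26.6 CPM, and reads in shared positions cannot be assigned to either gene. The promoter of BCL2L11 held 39 CpG, more than the other 3 printed.

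In WT alone, the comparison between days asks how the members differed between days of treatment without a tagged protein. No untreated WT of these days was included. Time in doxycycline and auxin therefore cannot be told apart from time in culture or a batch by day. On day 6 against day 2, 2 of 10 rose (BBC3 and BCL2L11) and 7 fell (BCL2L1, MCL1, BAX, BAK1, PMAIP1, BID and BIK), where 35.7% of all genes rose and 32.1% fell. PMAIP1 was read at 41.5, 43.7 and 37.1 CPM on day 6 and 84.1, 94.5 and 84.1 CPM on day 2, a log2 fold change of −1.10 ± 0.11 (adjusted p = 1.43e-10) that turned to 0.06 once GC content and length were corrected for. BIK fell by 1.18 ± 0.22 (adjusted p = 2.85e-05) and BID by 1.08 ± 0.11 (adjusted p = 1.3e-10) on the log2 scale. BAK1 was read at 31.9, 34.5 and 29.4 CPM on day 6 and 54.7, 59.3 and 53.03 CPM on day 2, at −0.80 ± 0.11 (adjusted p = 6.37e-08). BCL2L1 at −0.41 ± 0.14 (adjusted p = 0.0106), MCL1 at −0.37 ± 0.07 (adjusted p = 1.24e-05) and BAX at −0.32 ± 0.12 (adjusted p = 0.0179) fell less. BBC3 at 0.66 ± 0.16 (adjusted p = 0.000645), or 0.10 without a call after correction, and BCL2L11 at 0.55 ± 0.10 (adjusted p = 1.01e-05) rose. The BAX call was lost without WT day 2 replicate 1 (adjusted p = 0.0527), WT day 2 replicate 2 (adjusted p = 0.0776) or WT day 6 replicate 1 (adjusted p = 0.054) and, at −0.18, with the correction, and that of BCL2L1 without WT day 2 replicate 3 (adjusted p = 0.0589).

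On day 8 against day 2, 1 member rose and 5 fell (background 30.1% and 29.7%). BBC3 rose at 0.46 ± 0.16 (adjusted p = 0.0158), which turned to −0.26 with the GC and length correction. PMAIP1 again fell furthest at −1.0 ± 0.11 (adjusted p = 2.96e-09), or −0.06 without a call after correction, then BAK1 at −0.57 ± 0.11 (adjusted p = 2.96e-05) and BIK at −0.52 ± 0.22 (adjusted p = 0.0391). BID at −0.41 ± 0.11 (adjusted p = 0.00143) and MCL1 at −0.35 ± 0.07 (adjusted p = 4.19e-05) also fell. The BIK call was lost on leaving out any of 5 libraries in turn (adjusted p 0.0556 to 0.141) and, at −0.13, with the correction, and that of BBC3 without WT day 2 replicate 2 (adjusted p = 0.0575). On day 8 against day 6, 3 rose and 1 fell (background 17.6% and 17.0%). These were BID at 0.67 ± 0.11 (adjusted p = 2.68e-05), BIK at 0.66 ± 0.22 (adjusted p = 0.0225) and BAX at 0.34 ± 0.12 (adjusted p = 0.0249), which rose, and BCL2L11 at −0.37 ± 0.10 (adjusted p = 0.00429), which fell. The BIK call was lost on leaving out 3 libraries in turn (adjusted p 0.0714 to 0.106) and that of BAX on leaving out 4 libraries in turn (adjusted p 0.0512 to 0.0788), and the correction ended both, at 0.47 and 0.19. BCL2 was called in none of the 3 comparisons.

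The WT differences between days were sensitive to scaling. Over all genes on day 6 against day 2, the third with the shortest exons had a median log2 fold change of −0.29. The third with the longest exons had 0.525. With library size alone the median of all genes moved to 0.36 on day 6 against day 2, and the falls of BCL2L1, MCL1 and BAX were lost. With the correction for GC content and length, BID at −0.96 and BAK1 at −0.57 kept their calls on day 6 against day 2, and BCL2L1 was called lower on day 8 against day 2 at −0.50 (adjusted p = 0.00555).

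The comparison between degron lines asks whether the lines depleted of UHRF1, DNMT1 or both differ. Over 9 comparisons members were called higher 3 times and lower 18 times in 90 tests, beside 11.0% of all gene tests called higher and 11.4% lower. BCL2, BCL2L1, BAK1 and BID were called in none of the 9 with TMM scaling. On day 8, UHRF1-AID/DNMT1-AID against UHRF1-AID had 1 member higher and 3 lower (background 20.4% and 23.5%), against DNMT1-AID 0 higher and 3 lower (background 46.1% called in either direction), and UHRF1-AID against DNMT1-AID 0 and 1 (background 10.0% and 8.24%). BCL2L11 separated the double line from both single lines, at −0.74 ± 0.10 (adjusted p = 7.22e-07) against DNMT1-AID and −0.54 ± 0.10 (adjusted p = 8.45e-05) against UHRF1-AID. PMAIP1 did so too, at −0.49 ± 0.12 (adjusted p = 0.000841) and −0.36 ± 0.12 (adjusted p = 0.0114). MCL1 was lower in UHRF1-AID/DNMT1-AID than in UHRF1-AID at −0.29 ± 0.07 (adjusted p = 0.00102), and BIK was higher at 0.51 ± 0.21 (adjusted p = 0.0466). BAX was lower than in DNMT1-AID both in UHRF1-AID, at −0.50 ± 0.12 (adjusted p = 0.00276), and in UHRF1-AID/DNMT1-AID, at −0.29 ± 0.12 (adjusted p = 0.0381).

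The BIK difference was lost on leaving out 5 libraries in turn (adjusted p 0.0637 to 0.151) and with the GC and length correction. The BAX difference of UHRF1-AID/DNMT1-AID was lost on leaving out 4 libraries in turn (adjusted p 0.0904 to 0.227) and with DESeq2 (adjusted p = 0.0887). The PMAIP1 difference from UHRF1-AID was lost without UHRF1-AID/DNMT1-AID replicate 1 (adjusted p = 0.0761), and the MCL1 difference was lost with the GC and length correction at −0.13. With that correction UHRF1-AID/DNMT1-AID was called lower in BBC3 than DNMT1-AID, at −0.70 (adjusted p = 0.000415), and than UHRF1-AID, at −0.48 (adjusted p = 0.0122), and lower in BAK1 than UHRF1-AID, at −0.30 (adjusted p = 0.01).

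On day 6, UHRF1-AID/DNMT1-AID had 0 members higher and 2 lower than UHRF1-AID (background 5.41% and 5.39%) and 0 higher and 3 lower than DNMT1-AID (background 10.1% and 13.0%). UHRF1-AID had 0 higher and 2 lower than DNMT1-AID (background 5.52% and 5.10%). BBC3 was lower in the double line at −0.59 ± 0.16 (adjusted p = 0.00672) against DNMT1-AID and −0.54 ± 0.16 (adjusted p = 0.0231) against UHRF1-AID. These BBC3 calls were lost without UHRF1-AID/DNMT1-AID replicate 1 (adjusted p = 0.0591) in the first case and on leaving out 3 libraries in turn (adjusted p 0.123 to 0.147) in the second. BCL2L11 was lower than in DNMT1-AID at −0.62 ± 0.10 (adjusted p = 1.81e-05) in UHRF1-AID/DNMT1-AID and −0.33 ± 0.10 (adjusted p = 0.0264) in UHRF1-AID, and the second was lost on leaving out 4 libraries in turn (adjusted p 0.0787 to 0.169). MCL1 was −0.27 ± 0.07 (adjusted p = 0.00934) in UHRF1-AID/DNMT1-AID against UHRF1-AID, lost without UHRF1-AID/DNMT1-AID replicate 1 (adjusted p = 0.0622). BAX in UHRF1-AID/DNMT1-AID at −0.33 ± 0.12 (adjusted p = 0.0391) and PMAIP1 in UHRF1-AID at −0.40 ± 0.11 (adjusted p = 0.0198) were lower than in DNMT1-AID, and were lost on leaving out 3 libraries in turn (adjusted p 0.0844 to 0.294) and 4 libraries in turn (adjusted p 0.0565 to 0.0942). The correction added calls of BAX in UHRF1-AID at −0.36 and PMAIP1 in UHRF1-AID/DNMT1-AID at −0.24 against DNMT1-AID, and of BCL2L11 in UHRF1-AID/DNMT1-AID at −0.27 against UHRF1-AID. For UHRF1-AID/DNMT1-AID against DNMT1-AID, DESeq2 added BID at 0.32 and lost the BAX call (adjusted p = 0.0898).

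On day 2, UHRF1-AID/DNMT1-AID had 1 member higher and 1 lower than UHRF1-AID (background 12.1% and 5.60%), and 0 higher and 1 lower than DNMT1-AID (background 6.10% and 4.72%). UHRF1-AID had 1 higher and 2 lower than DNMT1-AID (background 7.21% and 12.7%). BCL2L11 was lowest in UHRF1-AID, at −0.45 ± 0.10 (adjusted p = 0.0017) against DNMT1-AID, with UHRF1-AID/DNMT1-AID at 0.34 ± 0.10 (adjusted p = 0.0186) against UHRF1-AID. MCL1 was highest there, at 0.19 ± 0.07 (adjusted p = 0.049) against DNMT1-AID, with UHRF1-AID/DNMT1-AID at −0.26 ± 0.07 (adjusted p = 0.00706) against UHRF1-AID. PMAIP1 was read at 73.6, 70.4 and 70.0 CPM in UHRF1-AID/DNMT1-AID and 90.7, 89.9 and 63.8 CPM in UHRF1-AID, against 84.3, 112 and 111 CPM in DNMT1-AID, at −0.52 ± 0.11 (adjusted p = 0.00188) and −0.33 ± 0.11 (adjusted p = 0.0336). The MCL1 difference of UHRF1-AID from DNMT1-AID was lost on leaving out 5 libraries in turn (adjusted p 0.0817 to 0.256) and with DESeq2 (adjusted p = 0.0748). That of UHRF1-AID/DNMT1-AID from UHRF1-AID was lost without UHRF1-AID replicate 1 (adjusted p = 0.0766). With the GC and length correction both MCL1 calls were lost, at 0.16 and −0.14, and BBC3 was called lower in UHRF1-AID/DNMT1-AID than in UHRF1-AID at −0.57 (adjusted p = 0.00926). The PMAIP1 difference of UHRF1-AID was lost on leaving out 3 libraries in turn (adjusted p 0.153 to 0.279), and the BCL2L11 difference of UHRF1-AID/DNMT1-AID on leaving out 3 libraries in turn (adjusted p 0.0522 to 0.0698).

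Where both proteins carry the tag, the sum of the single-line effects can be set against the double line. Of the members, 0 were called above the sum and 4 below it in 30 tests. BBC3 accounted for 2 of the 4. On day 8 its effects of 1.28 in DNMT1-AID and 1.10 in UHRF1-AID were followed by 1.05 in UHRF1-AID/DNMT1-AID, a difference from the sum of −1.34 ± 0.22 (adjusted p = 8.31e-05) (background 3.67% above and 10.4% below). On day 6 that difference was −1.10 ± 0.22 (adjusted p = 0.00218) (background 0.480% and 3.58%), and on day 2 it was −0.62 ± 0.23 (adjusted p = 0.112), which was called with the GC and length correction at −1.06 (adjusted p = 0.00266). BID was below the sum on day 8 at −0.57 ± 0.15 (adjusted p = 0.0101). MCL1 was below it on day 2 at −0.33 ± 0.10 (adjusted p = 0.0367) (background 4.85% and 1.75%). That call was lost on leaving out 9 libraries in turn (adjusted p 0.0543 to 0.152), with DESeq2 (adjusted p = 0.0525) and, at −0.27, with the correction. The correction added BCL2L11 on day 6 at −0.485 (adjusted p = 0.02). BCL2 stood 1.16 to 1.53 above the sum without a call. A log2 scale without interaction means that effects multiply. Within a day, the differences of the 3 lines from WT share the WT libraries of that day.

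The change between day 2 and day 8 was then compared between each degron line and WT. Of 10 members in UHRF1-AID/DNMT1-AID, 1 was called higher and 2 lower (background 16.1% and 22.6%), in DNMT1-AID 1 and 2 (background 7.05% and 9.28%), and in UHRF1-AID 0 and 1 (background 10.7% and 7.09%). Over the 3 lines 2 were called higher and 5 lower in 30 tests, beside 11.3% and 13.0% of all gene tests. Taken over both directions, members were thus called about as often as all genes. MCL1 fell further over these days than WT in each degron line, by a log2 difference of −0.60 ± 0.10 (adjusted p = 3.35e-05) in UHRF1-AID, −0.57 ± 0.10 (adjusted p = 0.000183) in DNMT1-AID and −0.63 ± 0.10 (adjusted p = 4.35e-06) in UHRF1-AID/DNMT1-AID. In CPM, MCL1 ran 288 ± 9.87, 181 ± 8.71 and 146 ± 8.77 on days 2, 6 and 8 in UHRF1-AID/DNMT1-AID, against 290.5 ± 8.91, 224 ± 4.69 and 228 ± 11.5 in WT (SD, n = 3). BCL2L11 ran 38.9 ± 1.90, 36.3 ± 3.97 and 18.7 ± 0.825 CPM in UHRF1-AID/DNMT1-AID, against 35.5 ± 1.64, 52.0 ± 0.949 and 40.4 ± 1.35 CPM in WT, a difference in change of −1.24 ± 0.15 (adjusted p = 4.5e-08). In DNMT1-AID that difference was −0.61 ± 0.14 (adjusted p = 0.00341), and in UHRF1-AID −0.36 ± 0.14 (adjusted p = 0.0803).

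BBC3 ran 45.2 ± 2.96, 77.1 ± 9.52 and 111 ± 2.33 CPM in DNMT1-AID, against 33.1 ± 2.59, 52.2 ± 7.15 and 45.4 ± 0.934 CPM in WT (SD, n = 3). Its difference in change was 0.83 ± 0.23 (adjusted p = 0.012) in DNMT1-AID, or 0.42 without a call after the GC and length correction. In UHRF1-AID/DNMT1-AID it was 0.59 ± 0.23 (adjusted p = 0.0384), which turned to −0.02 with the correction and was lost without WT day 2 replicate 3 (adjusted p = 0.09), UHRF1-AID/DNMT1-AID day 2 replicate 2 (adjusted p = 0.0898), WT day 8 replicate 1 (adjusted p = 0.0627), WT day 8 replicate 2 (adjusted p = 0.0668), WT day 8 replicate 3 (adjusted p = 0.053) or UHRF1-AID/DNMT1-AID day 8 replicate 2 (adjusted p = 0.135). The correction added calls of BAX, at −0.52 in UHRF1-AID and −0.40 in UHRF1-AID/DNMT1-AID, and of BID, at 0.47 in UHRF1-AID. BIK in UHRF1-AID/DNMT1-AID stood at 0.71 ± 0.30 (adjusted p = 0.0638) and was called by DESeq2 at 0.76 (adjusted p = 0.0246).

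The balance of the family was described by dividing the summed TPM of the 3 pro-survival members by that of the 7 pro-death members in each library. On day 8 this ratio was 0.501, 0.519 and 0.653 in UHRF1-AID/DNMT1-AID, with 0.621, 0.426 and 0.599 in DNMT1-AID, 0.604, 0.565 and 0.597 for UHRF1-AID, against 0.770, 0.772 and 0.739 in WT. The degron libraries all lay below those of WT, an order that was not kept when counts were corrected for GC content and exon length, an alternative chosen after seeing the data. The group means were 0.733, 0.722 and 0.775 times that of WT in the same order of lines, with an SD of 0.111, 0.142 and 0.0331. On day 6 the means were 0.906, 0.761 and 0.887 times WT, with an SD of 0.0826, 0.0785 and 0.144. Without replicate 2 of UHRF1-AID the last of these was 0.810. On day 2 the means were 0.970, 0.894 and 1.03 times WT, with an SD of 0.113, 0.104 and 0.146. The numerator is mostly BCL2L1 and MCL1, so BCL2 adds little to it. Over the effectors alone the day 8 ratio averaged 1.72 in UHRF1-AID/DNMT1-AID, 1.69 in DNMT1-AID and 1.87 in UHRF1-AID, against 2.11 in WT, and over the BH3-only members 0.827, 0.812 and 0.861, against 1.19 in WT. Corrected in that way, the day 8 ratio was 0.943 times WT in UHRF1-AID, 0.893 times in DNMT1-AID and 1.05 times in UHRF1-AID/DNMT1-AID. No test was made of the ratio, since its members were chosen with results known.

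**Figure D4:**
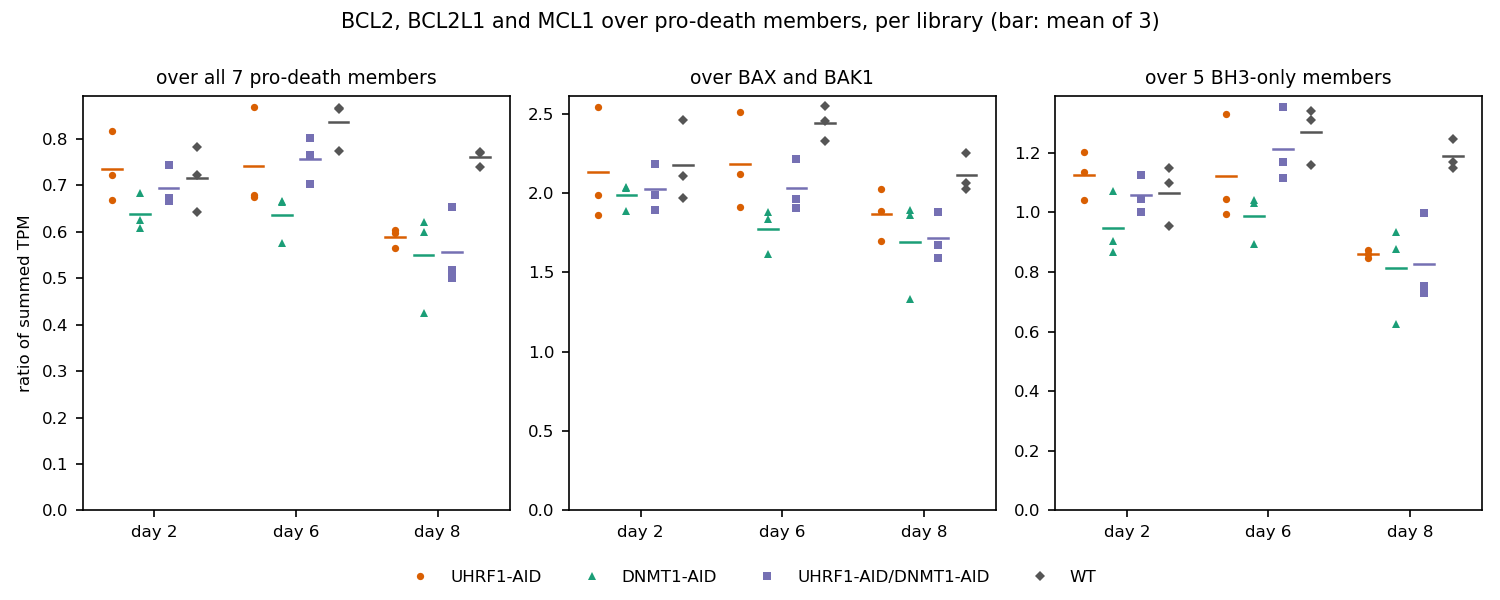
Ratio of summed TPM of BCL2, BCL2L1 and MCL1 to summed TPM of the 7 pro-death members (left), of BAX and BAK1 (middle) and of the 5 BH3-only members (right), with one point per library and a bar for the mean of 3, by line within day. In the left panel on day 8 all degron libraries lie at 0.653 or below and all WT libraries at 0.739 or above, an order that the GC and length correction did not keep.

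The other genes of the pathway were counted in lists that gather relatives of the members, the downstream machinery and known regulators, with values for UHRF1-AID/DNMT1-AID against WT on day 8 (background 35.7% rose and 32.8% fell, median 0.03 over all genes). These values have TMM scaling, and a refit with the GC and length correction, chosen after seeing the data, turned or ended the calls of several genes, each given beside its value. Of the other pro-survival members BCL2A1, BCL2L2 and BCL2L10, only BCL2L2 passed the filter on low counts, and it fell (−0.43 ± 0.10, adjusted p = 0.000309). The 4 other pro-death members rose in 2 cases, BAD (0.66 ± 0.12, adjusted p = 5.56e-06), a BH3-only protein controlled by phosphorylation that turned to −0.50 and was called lower with the correction, and BMF (1.28 ± 0.25, adjusted p = 3.33e-05), a BH3-only protein tied to the cytoskeleton. Of 12 BCL2-like and BNIP genes 3 rose, with BCL2L13 at 0.39 ± 0.07 and BCLAF3 at 0.49 ± 0.19, and 2 fell, BCLAF1 at −0.55 ± 0.09 and BNIP2 at −0.45 ± 0.08, both of which turned and were called higher with the correction, at 0.21 and 0.29. The remaining one, the readthrough gene BCL2L2-PABPN1 at 0.57 ± 0.08, or 0.09 without a call after correction, shares reads with BCL2L2 and is uncertain. With the correction 6 of the 12 genes rose and 1 fell.

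Downstream of the mitochondrion, 6 of 15 apoptosome and caspase genes rose and 5 fell (7 and 3 with the correction), with a median of 0.11. The initiator caspase gene CASP8 at 0.34 ± 0.08 and the endonuclease gene ENDOG at 0.40 ± 0.11 rose, although ENDOG turned to −0.87 and was called lower with the correction, with HTRA2 at 0.32 ± 0.10 and CASP10 at 0.37 ± 0.13. DFFB, which encodes the caspase-activated DNase, fell (−1.44 ± 0.14, adjusted p = 2.97e-11), and so did APAF1 (−0.89 ± 0.13, adjusted p = 2.28e-07), the scaffold of the apoptosome. With the correction APAF1 stood closer to WT, at −0.29, and CASP8 further from it, at 0.90. Inhibitors of apoptosis proteins were called only lower, in 4 of 7 tested genes with a median of −0.71, whereas with the correction 2 were called higher and 3 lower, with a median of 0.03. The 4 were BIRC5 (survivin, also a mitotic protein; −1.45 ± 0.10, adjusted p = 3.64e-14), BIRC6 at −0.78 ± 0.09, BIRC2 at −0.77 ± 0.09 and the caspase inhibitor XIAP at −0.71 ± 0.10, which turned to 0.03 without a call after correction, where BIRC5 stood at −1.56, BIRC2 at −0.23 and BIRC6 at −0.21. With TMM scaling 4 of 7 also fell in UHRF1-AID (background 21.0% fell, median −0.25 in the list) and in DNMT1-AID (background 22.4% fell, median −0.49), but with the correction only 1 of 7 was called lower in each. Of 10 death receptor genes tested 3 rose and 2 fell, the death ligand TNFSF10 (TRAIL) rising most (3.13 ± 0.43, adjusted p = 1.5e-07) beside TRADD at 0.95 ± 0.13, which turned to −0.05 without a call after correction, and TNFRSF10B at 0.19 ± 0.08. The adaptor FADD at −0.49 ± 0.08 and the receptor FAS at −0.66 ± 0.13 fell, the call of FAS being lost with the correction at −0.13.

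Of 9 genes for mitochondrial partners 0 rose and 6 fell (3 and 5 with the correction), among them the fusion GTPases MFN1 (−1.05 ± 0.09, adjusted p = 1.28e-12) and MFN2 at −0.67 ± 0.09, MARCHF5 at −0.38 ± 0.07, which turned to 0.16 and was called higher with the correction, and the BID receptor MTCH2 at −0.39 ± 0.09. MFN1 stood at −0.43 with the correction. Of 8 factors that set the stability or placement of MCL1, BCL2L11 and BID proteins, 2 rose and 3 fell (4 and 2 with the correction). USP9X, which removes ubiquitin from MCL1, fell (−0.43 ± 0.08, adjusted p = 6.46e-06) but turned to 0.25 and was called higher with the correction. HUWE1, a ubiquitin ligase of MCL1, fell at −0.87 ± 0.15, and the dynein light chain genes went apart, with DYNLL2 at −0.49 ± 0.09 and DYNLL1 at 0.73 ± 0.09. DUSP6, the ERK phosphatase, rose at 0.87 ± 0.23. Of 15 transcription regulators of the family and their p53 partners 4 rose and 8 fell, with a median of −0.42. With the correction 4 rose and 6 fell, with a median of −0.12. NFKB1 (−1.15 ± 0.12, adjusted p = 4.83e-10), E2F1 at −1.06 ± 0.12, CREB1 at −0.87 ± 0.10 and MYC at −1.34 ± 0.16 fell, CREB1 without a call after correction at −0.10, while the stress factor DDIT3 (CHOP; 1.49 ± 0.17, adjusted p = 2.98e-09) and STAT3 at 0.45 ± 0.08 rose. After correction NFKB1 stood closer to WT, at −0.38, and E2F1 further from it, at −1.85.

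Across the 12 group means of log2 CPM, the members with the widest range were BCL2 (1.98) among the pro-survival and BIK (1.94) among the pro-death genes. Of 11674 genes with a mean of at least 5 CPM, SEPTIN3 (Pearson r = 0.874), LHX6 (0.861) and PXDN (0.855) followed BCL2 most closely, and CYBA (0.995), BCAP31 (0.994) and MVB12A (0.990) followed BIK. Among the members themselves BID and BIK had r = 0.964, BCL2L1 and BIK 0.956 and BCL2L1 and BID 0.952, whereas MCL1 and BBC3 had −0.788. These 12 points share library preparation, scaling and the GC and length shifts described above, and the values are descriptions of likeness over groups.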

How the data were processed

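The authors deposited whole-number read counts per gene for each library, made by trimming adapters, aligning with STAR to hg38 and counting with featureCounts; the annotation release and strand setting are not given in the sources used here. Of 60648 identifiers, 60462 matched the reference annotation, and 44 second copies and 142 unmatched ones were left out. Counts were modelled in R 4.3.3 with edgeR 4.0.16 (TMM scaling, filter at a minimum count of 10, robust quasi-likelihood fit with 1 mean per group and 24 residual degrees of freedom, two-sided, 27 comparisons). The script was tested on simulated data, where 65% of changes of 1.5-fold and 82% of 2-fold changes were recovered for UHRF1-AID/DNMT1-AID against WT on day 8. The study's methods used DESeq2 (1.42.0 here), which was an alternative with other scalings, filters, gene sets, a replicate block and a GC and length correction (natural splines with 5 degrees of freedom). TPM used the union of exons. All 10 members are named. From each list, up to 4 genes with the smallest p in the commoner direction and 2 in the other were named. The members and lists were chosen with earlier results of these data known. The study calls the triplicates biological, generally 3 clones per degron line, and the labels name none. Replicate numbers did not pair the samples (3 of 63 pairs had a correlation of deviations above 0.1). Days 0 and 4 were not analysed here.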

Additional observations from a re-analysis of the deposited data

Results flagged for a closer look

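A change between day 2 and day 8 that differed between a degron line and WT, by the interaction term of the same edgeR model, was found 7 times in 30 tests of the members, 2 higher and 5 lower, beside 11.3% of all gene tests called higher and 13.0% lower. Taken over both directions, members were called about as often as all genes. MCL1 differed in UHRF1-AID by −0.603 ± 0.0980 (log2, SE; adjusted p = 3.35e-05), in DNMT1-AID by −0.572 ± 0.0982 (adjusted p = 0.000183) and in UHRF1-AID/DNMT1-AID by −0.631 ± 0.0983 (adjusted p = 4.35e-06). BCL2L11 differed in DNMT1-AID by −0.608 ± 0.144 (adjusted p = 0.00341) and in UHRF1-AID/DNMT1-AID by −1.24 ± 0.146 (adjusted p = 4.50e-08). BBC3 differed in DNMT1-AID by 0.832 ± 0.227 (adjusted p = 0.0120) and in UHRF1-AID/DNMT1-AID by 0.594 ± 0.227 (adjusted p = 0.0384). The differences for MCL1 and BCL2L11 were negative and those for BBC3 positive, but BBC3 in UHRF1-AID/DNMT1-AID turned to −0.0234 with the GC and length correction and in DNMT1-AID it lost its call there, at 0.42. The 3 lines share the WT libraries of both days.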

How the results depend on the processing

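Calls below WT stayed within 1.5 times of 18 under each alternative tried, and calls above WT (30) went to 13 with the GC and length correction and to 15 with that correction and the replicate block. The share of all genes called under these alternatives is not given, so such moves cannot be read as particular to the members. The calls below WT were not always the same ones, since the correction lost some of BCL2, MCL1 and BCL2L11 and gained others of BAX and PMAIP1. Without 1 library at a time the calls ran from 25 to 31 above and 15 to 20 below WT. In WT between days, calls of rises (6) went to 2 with the GC and length correction and 3 with the block and the correction, and calls of falls (13) to 8 with library size only; without 1 library they ran from 4 to 6 and 11 to 13. Between degron lines, rises (3) went to 1 with no filter on low counts and to 1 with the GC and length correction, and ran from 0 to 5 without 1 library, with 15 to 19 falls. For the change from day 2 to day 8, rises (2) went to 4 with the size factors of DESeq2, 4 with DESeq2 and 4 with the replicate block, and to 1 with library size only, with no filter, with the GC and length correction and with the block and the correction; without 1 library they ran from 1 to 4, with 5 falls each time. For non-additivity, falls ran from 3 to 6 and rises from 0 to 1 without 1 library. The replicate numbers share only a number, and the block moved no other count of member calls by over 1.5 times.

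Among the members, directions turned only under the GC and length correction, without and with the replicate block: BAX in DNMT1-AID on day 8 (−0.104 and −0.104), BAK1 in DNMT1-AID (−0.0518 and −0.0526) and UHRF1-AID/DNMT1-AID (−0.173 and −0.172) on day 8, PMAIP1 in WT on day 6 against day 2 (0.0617 and 0.0609), BBC3 in WT on day 8 against day 2 (−0.262 and −0.260), and the BBC3 change in UHRF1-AID/DNMT1-AID (−0.0234 and −0.0165). Pooled over all alternatives other than leaving out 1 library, 764 called member values kept call and direction, 115 lost the call and 12 turned. This pool counts each call once per alternative. The GC and length correction lost more calls than any alternative without it. Leaving out 1 library kept 537 and lost 123. The corrected ratio of pro-survival to pro-death transcripts relative to WT was 1.15 in UHRF1-AID/DNMT1-AID on day 2, 1.06 on day 6 and 1.05 on day 8, while on day 8 DNMT1-AID stood at 0.893 and UHRF1-AID at 0.943. The cause was not tested. Depth limits BCL2, at 6 to 104 reads per library, more than any other member.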
